A study of Drosophila melanogaster with 2 samples.

Results

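The sites described here lay in and just upstream of 10 Drosophila melanogaster genes of the epidermal growth factor (EGF) receptor pathway, out of 18164 annotated genes on the 6 main chromosome arms. The genes were taken by name: the ligands spi, Krn and vn, the ligand-processing protease rho, the receptor Egfr, the inhibitors aos, sty and kek1, and the nuclear effectors pnt and aop. All 10 were found in the Ensembl annotation. A site belonged to a gene when the summit of a peak lay between 2 kb upstream of the gene and its end. Sites came from ChIP-seq, in which fragments of sonicated chromatin recovered with an antibody are sequenced. Whole prepupae, 1 day of age, of the strain CG11294-GFP were used, a transgenic line that carries the protein CG11294 fused to eGFP; the antibody was against GFP per the sample descriptions, although the antibody label names CG11294. CG11294 is annotated as a homeodomain protein, a class of DNA-binding transcription factors. There was 1 group with 2 biological replicates, and no control immunoprecipitation, input, other stage or other strain was analysed here. The chromatin came from all tissues of whole animals, so a site used in few cells and a weak site in many cells cannot be told apart.

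In this pathway, membrane-bound Spitz (spi) and Keren (Krn) are cut by the intramembrane protease Rhomboid (rho), and the freed ligands, or the secreted neuregulin-like ligand Vein (vn), activate the receptor Egfr, which signals through Ras and the MAP kinase cascade. At the end of the cascade the ETS proteins Pointed (pnt) and Anterior open (aop, also called Yan) act against each other, Pointed as an activator and Anterior open as a repressor. Argos (aos) binds and sequesters Spitz outside the cell, Sprouty (sty) acts inside the cell, and Kekkon 1 (kek1) is a membrane protein that binds the receptor. In larval and pupal tissues the pathway is known for its part in forming wing veins and eye cells.

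Peaks were read from 4 thresholded lists and the 4 longer ranked lists behind them. The list used throughout as the main list held the peaks that passed an irreproducible discovery rate (IDR) value of 0.01 between the replicates; IDR measures how well 2 rankings agree. It held 3260 peaks on the arms. The pooled list held 4328, replicate 1's own list 3217 and replicate 2's own list 2708. The pooled ranking and each replicate's own ranked list carry IDR values of their own, which are not those between the replicates. Which rankings those values compare is not described here. Each peak carries the authors' signal value, a value of unstated scale that is used here only to rank and describe peaks within a list. Read depth was unknown. The signal values of the main and pooled lists were the same for the same peak, and those of the 2 replicates were on scales of their own. The gene of the tagged protein itself, CG11294, held no summit in any of the 4 thresholded lists.

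Sequence windows of 201 bp, 8 in all and with 100 bp on either side of a summit, are shown, chosen to cover the genes. They are, for each of the genes sty, spi, vn, aop, pnt and aos, the strongest main-list summit with a thresholded peak in both replicates, then the site upstream of aop, and last the promoter site of Krn, which was in the pooled list and in replicate 1 only. No window of Egfr is shown. Sequences were read from the Release 6 genome (dm6 coordinates) on the strand of the gene, which is the minus strand for all of them. Capitals mark the homeodomain core TAAT and the word CACTG, each on either strand.
sty, chr3L:3418864-3419064: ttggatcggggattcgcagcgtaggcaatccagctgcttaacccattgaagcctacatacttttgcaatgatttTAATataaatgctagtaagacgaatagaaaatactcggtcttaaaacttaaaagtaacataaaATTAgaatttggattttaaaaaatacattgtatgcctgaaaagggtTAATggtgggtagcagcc
spi, chr2L:19575640-19575840: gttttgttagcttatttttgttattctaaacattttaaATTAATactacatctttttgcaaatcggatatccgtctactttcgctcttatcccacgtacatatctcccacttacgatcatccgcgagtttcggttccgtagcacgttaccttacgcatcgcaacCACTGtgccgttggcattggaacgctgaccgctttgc
vn, chr3L:5834341-5834541: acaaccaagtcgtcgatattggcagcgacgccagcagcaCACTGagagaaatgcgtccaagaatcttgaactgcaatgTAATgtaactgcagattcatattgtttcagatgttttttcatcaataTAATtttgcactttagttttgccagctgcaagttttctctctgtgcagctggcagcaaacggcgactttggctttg
aop intron, chr2L:2163553-2163753: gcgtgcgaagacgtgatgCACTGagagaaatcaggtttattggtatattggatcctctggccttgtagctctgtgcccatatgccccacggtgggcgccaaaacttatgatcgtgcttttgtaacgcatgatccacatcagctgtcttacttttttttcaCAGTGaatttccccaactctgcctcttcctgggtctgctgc
pnt, chr3R:23326392-23326592: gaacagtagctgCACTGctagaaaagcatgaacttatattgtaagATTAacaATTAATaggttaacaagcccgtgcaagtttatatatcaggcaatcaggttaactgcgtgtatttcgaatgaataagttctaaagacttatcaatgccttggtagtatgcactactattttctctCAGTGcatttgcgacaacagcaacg
aop upstream, chr2L:2180167-2180367: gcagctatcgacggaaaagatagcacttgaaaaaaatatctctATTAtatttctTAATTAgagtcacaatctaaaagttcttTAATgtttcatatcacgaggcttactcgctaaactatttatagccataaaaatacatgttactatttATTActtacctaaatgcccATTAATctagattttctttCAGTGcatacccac
aos, chr3L:16480472-16480672: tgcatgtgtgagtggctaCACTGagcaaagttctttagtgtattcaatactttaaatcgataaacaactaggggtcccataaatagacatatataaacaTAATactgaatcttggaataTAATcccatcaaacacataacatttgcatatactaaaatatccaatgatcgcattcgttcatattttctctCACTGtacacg
Krn, chr3L:17654292-17654492: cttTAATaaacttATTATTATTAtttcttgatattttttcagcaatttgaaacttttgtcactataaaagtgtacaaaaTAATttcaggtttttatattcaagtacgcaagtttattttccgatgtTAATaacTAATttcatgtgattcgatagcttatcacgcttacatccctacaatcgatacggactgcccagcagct

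TAAT is the core that homeodomain proteins commonly contact. It occurred in 16 of the 22 main-list windows in these genes (72.7%), beside 92.4% of all 3260 main-list windows. The longer homeodomain word TAATTA, which contains TAAT, occurred in 4 (18.2%, beside 16.5%). Those 4 were the weaker spi site, the upstream aop site, the Egfr site at 11897 bp and the pnt site at 10474 bp. The paired-class dimer of TAAT and ATTA with 3 free bases between them occurred in 0 (0 of 22, beside 2.76%). With 2 free bases it occurred in 1 (4.55%, beside 2.58%), at the aos site at 1272 bp. CACTG, a word known from earlier results on these data to be frequent beside summits, occurred in 12 of 22 (54.5%, beside 52.9%). It occurred at the edges of several windows: in the aos window shown its centres lay at -80 and 92 bp from the summit, in the pnt window at -86 and 78 bp, and in the intronic aop window at -80 and 62 bp. The strongest of the 22 sites, that of sty, held no CACTG and 3 copies of TAAT. The window of Krn held 7 copies of TAAT, as did the one upstream of aop, while the intronic aop window held none. CCGGAA, a core bound by ETS proteins, occurred in 1 of 22 windows (4.55%, beside 2.76%), in the aop intron at 9984 bp. The words were searched on both strands, and a match is a description of the letters only.

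Of the 10 genes, 7 held at least 1 main-list summit: spi, vn, aos, sty, Egfr, pnt and aop. Krn, rho and kek1 held none. Together the 7 held 22 summits, 0.956 per 10 kb of the 10 windows. Over the arms as a whole, sequence between genes included, there were 0.244 per 10 kb, and no density over all gene windows is given. The median signal of the 22 was 115, beside 110 for the main list, and 11 of the 22 lay above the list's median. The strongest ranked 206 of 3260. Among all annotated genes 15.3% held a main-list summit in a window drawn the same way.

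The genes with and without a main-list summit also differed in window length, and longer windows hold more summits throughout the genome. The windows of Krn, rho and kek1 were 6.72, 7.13 and 7.79 kb long, and 11.3% of all genes with a window under 10 kb held a main-list summit. The windows of spi, aos, aop and sty measured 11.4, 15.3, 24.3 and 25.8 kb; all 4 held a summit, beside 36.8% of genes with windows of 10 to 30 kb. Those of vn, Egfr and pnt measured 34.3, 39.6 and 57.9 kb; all 3 held a summit, beside 52.6% of genes with longer windows. Egfr held 5 summits, and aos, pnt and aop 4 each. Of all genes, 0.969% held 4 or more, beside 3.31% of genes with windows of 10 to 30 kb and 15.2% of those over 30 kb. Whether length accounts for the count in these genes was not tested.

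**Figure D1:**
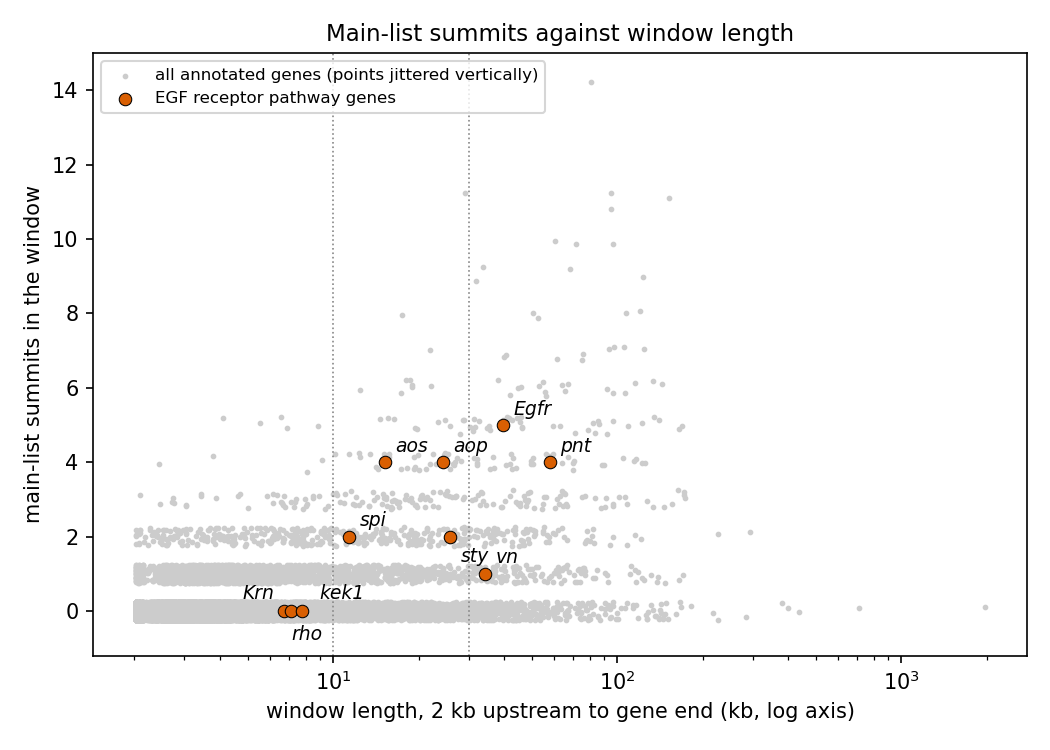
Number of main-list summits (vertical axis) against window length in kb (log axis) for 18164 annotated genes, with the 10 EGF receptor pathway genes in orange and dotted lines at 10 and 30 kb. Krn, rho and kek1 lie left of 10 kb with 0 summits, and the 7 genes to the right hold 1 to 5; grey points are jittered vertically and genes with more than 15 summits fall outside the plotted range.

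Nearly all summits were intronic. Of the 22, 20 lay in an intron of the gene itself and 2 upstream of it. An exon of any gene held 0, beside 308 of the 3260 main-list summits (9.45%). Inside an annotated gene lay 21 of the 22 (95.5%), beside 68.8% of all main-list summits. A window was a gene and the 2 kb upstream, so few summits between genes could be counted. Bases in introns made up 71.7% of the 10 windows and exons 23.2%. For 17 of the 22 the intron was the first of at least 1 transcript. Of the 22, 3 lay within 500 bp of an annotated transcription start site (TSS), 13.6% beside 35.8% of all main-list summits; 13.0% of the bases of the 10 windows lay that close to a TSS. Those 3 belonged to spi and aos. In the pooled list 7 of 31 summits lay within that distance (22.6%, beside 37.1%).

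**Figure D2:**
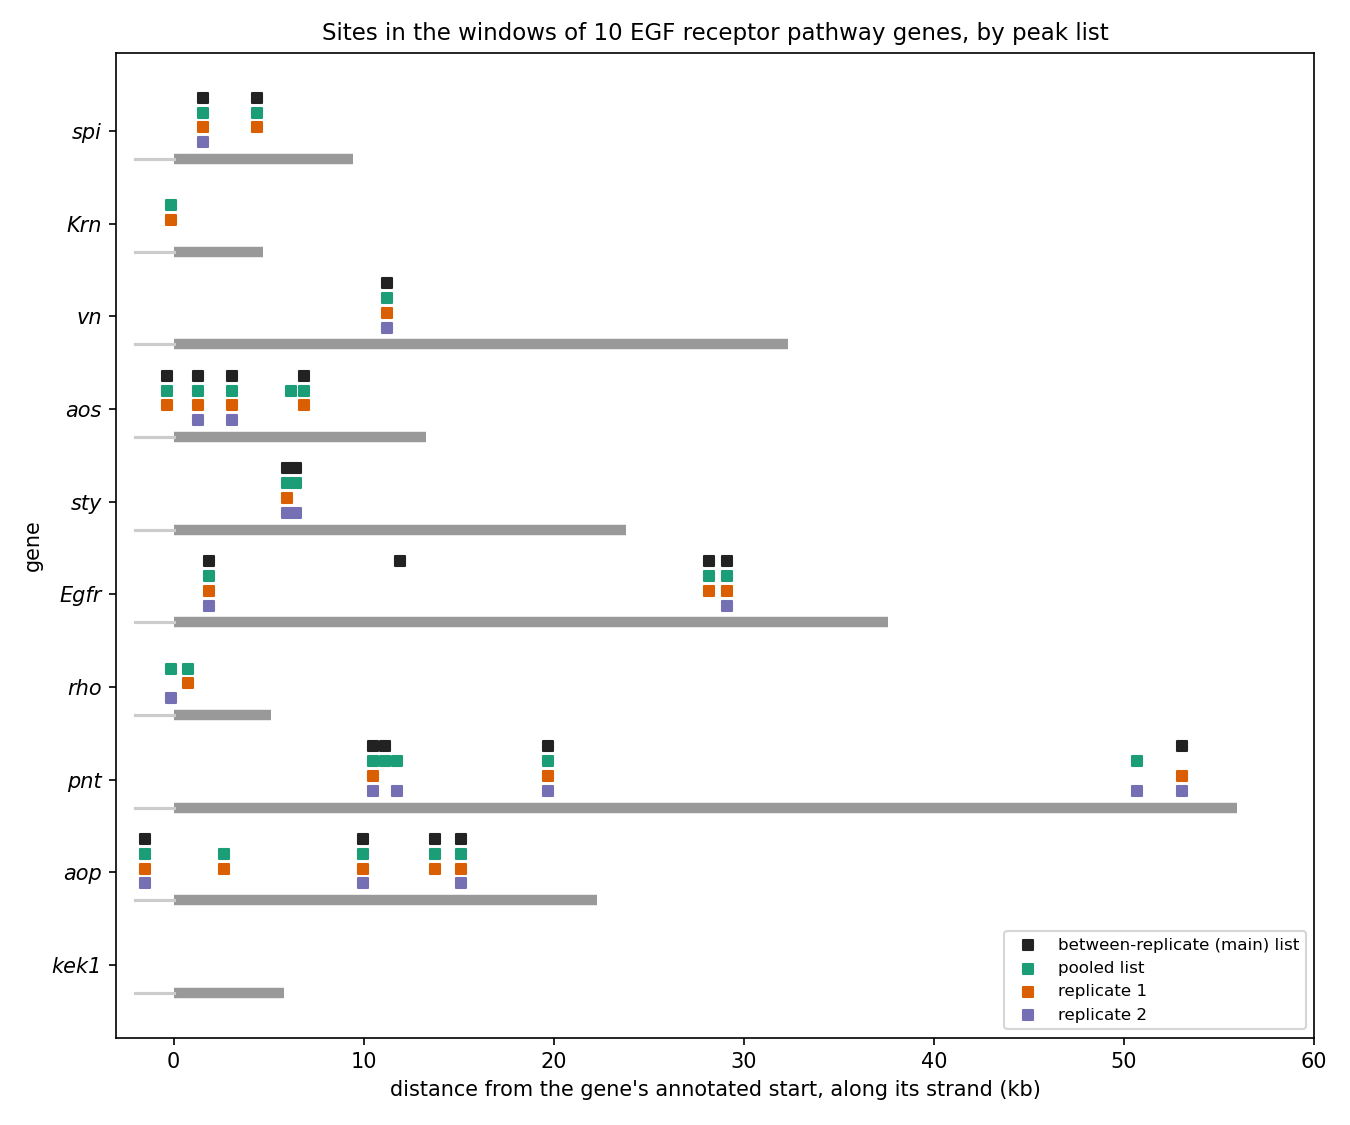
Position of each merged site along the 10 genes, in kb from the annotated start in the direction of transcription, with 1 row of squares for each thresholded list. The grey bar is the gene and the thin line the 2 kb upstream; 4 squares above each other mark a site present in every list, as at vn, and kek1 has none.

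Among the ligand genes, spi (FBgn0005672, 2L 19567900 to 19577315, minus strand) held 2 main-list summits in front of its inner start sites. The stronger (2L 19575638 to 19575844, signal 268, rank 382) lay at -153 bp from 1 TSS and 1575 bp inside the outermost start of the gene. It had a signal of 181 in replicate 1, at rank 282 of 65336 ranked peaks, and of 96.2 in replicate 2, at rank 627 of 89463. The weaker (2L 19572772 to 19573111, signal 96.5) lay at -332 bp from another TSS. It was thresholded in replicate 1 (signal 65.7, rank 1565) and not in replicate 2, where the overlapping ranked peak had a signal of 26.7, rank 7305 and an IDR value of 0.729. So spi had 1 site thresholded in both replicates and 1 thresholded in replicate 1 only. Between the replicates the weaker site still passed, with an IDR value of 0.00737.

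The vn gene (FBgn0003984, 3L 5813338 to 5845664, minus strand) held 1 main-list summit in its window of 34.3 kb. It covered 3L 5834344 to 5834536, in the first intron, which is 23.9 kb long, at 11223 bp from the only TSS (signal 257, rank 421). Its signal was 110 in replicate 1 (rank 720) and 146 in replicate 2 (rank 281), and the summits of the 2 replicates lay 3 and 10 bp from that of the main list. The site was thus close in place and present in both replicates.

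Krn, the other Spitz-like ligand (FBgn0052179, 3L 17649562 to 17654280, minus strand), held no main-list summit but 1 in the pooled list (3L 17654222 to 17654561, summit at -112 bp from its TSS, signal 108). The pooled list held a summit in 19.7% of all genes. In replicate 1 the Krn promoter peak had a signal of 86.1 and rank 1061. In replicate 2 the overlapping peak had a signal of 17.7 and rank 22332, with an IDR value of 0.738. Between the replicates its IDR value was 0.232, and 9.53e-05 in the pooled ranking. Main-list summits also lay at -3621 and -4301 bp from the Krn TSS (signals 124 and 169), outside the window; the nearest TSS to both was that of CG7484.

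The protease gene rho (FBgn0004635, 3L 1463811 to 1468944, plus strand) also had no main-list summit, and its 2 pooled-list summits each came from a different replicate. Both summits lay in an intron of the phosphatase gene Ptp61F as well, which was named after its position was seen. The summit at -138 bp from the rho TSS (signal 63.4) was thresholded in replicate 2 only (signal 42.4, rank 2651); in replicate 1 the overlapping peak had a signal of 12.2 and rank 27419. The summit at 756 bp (signal 80.7) was thresholded in replicate 1 only (signal 50.9, rank 2211); in replicate 2 it had a signal of 25.9 and rank 7924. The second of these just missed the main list, with an IDR value of 0.0111 between the replicates.

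The receptor gene Egfr (FBgn0003731, 2R 21522420 to 21559977, plus strand) held 5 main-list summits, all in the first intron of 31.6 kb, with the highest at rank 1058. It held 4 in the pooled list, where aos had 7, pnt 6 and aop 5. In replicate 1's own list it held 3 and in replicate 2's own list 2. The strongest (2R 21524200 to 21524332, signal 148) lay 1848 bp past the outer TSS. It stood in the top 0.686% of ranked peaks in replicate 2 (signal 97.2) and in the top 4.20% in replicate 1 (signal 43.1). A pair lay past the inner TSS, at 3927 bp (signal 79.4) and 4890 bp (signal 89.9). The one at 4890 bp was thresholded in both replicates, with signals of 49.7 and 48.2 in replicates 1 and 2. The one at 3927 bp was thresholded in replicate 1 (36.2), and in replicate 2 it had a signal of 40.6 and an IDR value of 0.0177. The remaining 2 summits, at 11897 and 12122 bp from the outer start, overlapped a thresholded peak in neither replicate and were not in the pooled list. The one at 11897 bp had a signal of 64.6 and the one at 12122 bp of 2.8, rank 3250 of 3260, and their peaks overlapped the same ranked peak in each replicate. The nearest TSSs to them were those of lncRNA:CR44725 and CG30286, not one of Egfr.

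Among the inhibitors, aos (FBgn0004569, 3L 16470386 to 16483650, minus strand) held 4 main-list summits in 15.3 kb, 2.62 per 10 kb, the highest density of the 10 in that list. In replicate 2's own list it held 2, or 1.31 per 10 kb, and spi had the higher density there at 1.75. Each of the 4 also lay in an intron of CG33158, a gene whose span holds them. The summit in front of the gene, at -333 bp (3L 16483813 to 16484152, signal 147), was thresholded in replicate 1 (signal 98.9, rank 845) and not in replicate 2 (42.5, rank 2650). The summits at 1272 bp (signal 141) and 3078 bp (signal 143) were thresholded in both. At 1272 bp the signals were 63.2 in replicate 1 and 85.6 in replicate 2, and at 3078 bp they were 82.8 and 63.4. The last, at 6859 bp (signal 85.8), was again thresholded in replicate 1 only (56.6, and 30.3 in replicate 2). The 4 thus fell into 2 sites thresholded in both replicates, inside the gene, and 2 thresholded in replicate 1 only. Of the latter, the promoter site had an IDR value of 0.000307 between the replicates and the other 0.00399.

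The Sprouty gene sty (FBgn0014388, 3L 3401153 to 3424935, minus strand) held the strongest site of the 10 genes (3L 3418848 to 3419063, signal 365, rank 206). It lay at -1003 bp from the inner TSS, in the first intron of the longer transcript, which measures 19.5 kb. Its signal was 186 in replicate 1 (rank 263) and 187 in replicate 2 (rank 170). A weaker summit beside it, at -519 bp from the same TSS (signal 79.1), was thresholded in replicate 2 (62.0, rank 1413) and not in replicate 1 (23.4, rank 6315). It was the only main-list summit of these genes thresholded in replicate 2 only, and its IDR value between the replicates was 0.00796. The 2 sites differed in composition, with 35.3% GC around the strong summit and 54.7% around the weak one.

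No thresholded list held a summit of kek1 (FBgn0015399, 2L 12817000 to 12822787, minus strand). Its strongest peak in the ranking between replicates lay 59 bp past the TSS, in the 5′ UTR, with a signal of 40.1, rank 7615 of 97080 and an IDR value of 0.0953. In replicate 1 the strongest ranked peak in its window had a signal of 21.7 and lay at -912 bp. In replicate 2 the strongest had a signal of 23.9 and lay at -1421 bp, so not at the same place. The next strongest lay in the 5′ UTR in both, at 193 bp in replicate 1 (signal 18.9) and 61 bp in replicate 2 (22.0).

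The ETS genes pnt and aop, the opposing effectors, each held 4 main-list summits. In pnt (FBgn0003118, 3R 23290231 to 23346167, minus strand) the strongest (3R 23326429 to 23326586, signal 186, rank 728) lay at 19675 bp from the outer start, in an intron of 24.3 kb. Its signal was 78.0 in replicate 1 (rank 1230) and 109 in replicate 2 (rank 490). A pair in the same intron at 10474 and 11101 bp, nearest to the TSS of lncRNA:CR46090, had signals of 75.6 and 75.2. The first of that pair was thresholded in both replicates (34.6 and 40.7 in replicates 1 and 2) and the other in neither (46.4 and 32.4, with IDR values of 0.775 and 0.103). The fourth, at 52909 bp (signal 34.3), counted as present in both, but its peak was overlapped at opposite ends: the summit in replicate 1 lay 300 bp to the right along the chromosome, and that in replicate 2 at -124 bp. Another pnt site, at 11749 bp, was in the pooled list with a signal of 111, above the main-list median. It was thresholded in replicate 2 (83.3, rank 837) and not in replicate 1 (21.9, rank 7206), and missed the main list with an IDR value of 0.0109. In front of the innermost start of pnt, at -260 bp, a pooled-list summit of signal 73.4 was likewise thresholded in replicate 2 only.

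In aop (FBgn0000097, 2L 2156484 to 2178754, minus strand), 3 of the 4 main-list summits were thresholded in both replicates. The strongest (2L 2163575 to 2163742, signal 210, rank 610) lay at -2126 bp from the inner TSS and 15101 bp inside the gene, with signals of 97.5 in replicate 1 and 111 in replicate 2. The summit upstream of the gene (2L 2180194 to 2180324, at -1513 bp, signal 153) was intergenic, with signals of 77.0 and 69.0. The third shared summit, at 9984 bp (signal 134), had 75.2 and 54.4. The fourth, at 13770 bp (signal 76.3), was thresholded in replicate 1 only (42.9, and 32.1 in replicate 2). The 3 shared sites had their replicate summits within 19 bp of the main-list summit, so both replicates placed them alike. A further site at 2666 bp was in the pooled list (signal 74.5) and in replicate 1 (65.1), while replicate 2 had 15.5 there, rank 30040.

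**Figure D3:**
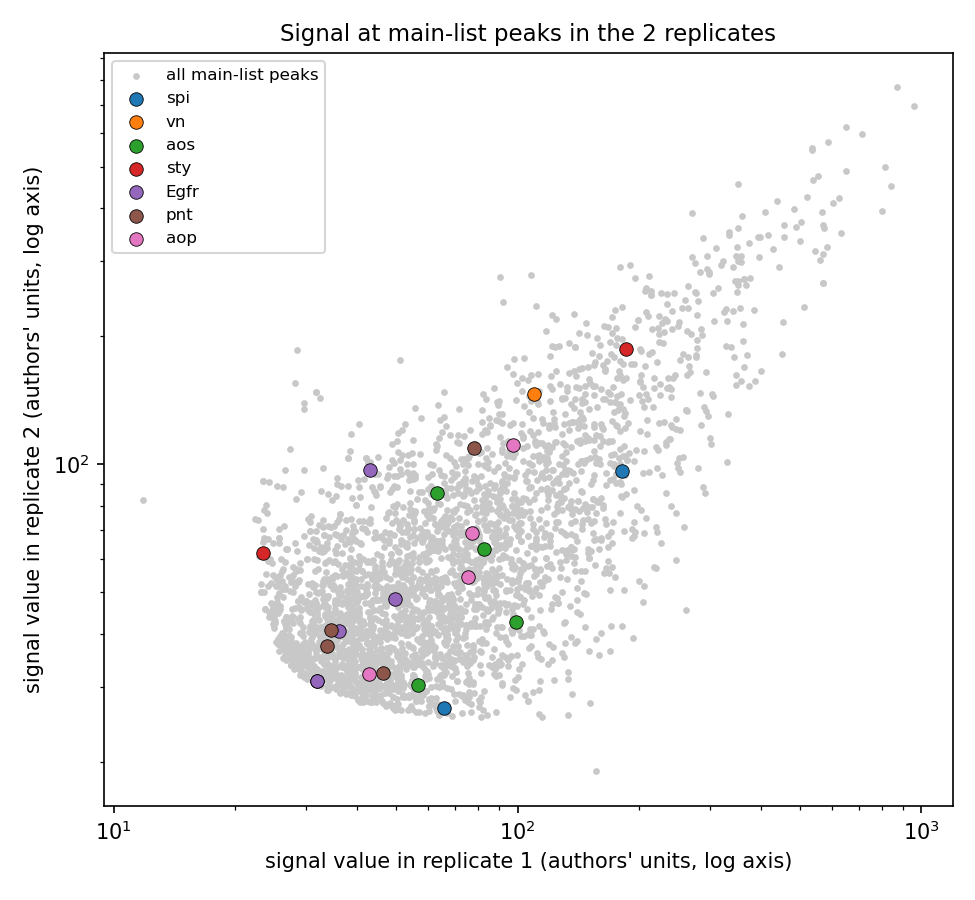
Signal value in replicate 1 (horizontal) and replicate 2 (vertical), both on log axes in the authors' units, for the 22 main-list peaks of the EGF receptor pathway genes (coloured by gene) and all 3200 that overlap ranked peaks of each replicate (grey). Among the 22, of which the Egfr pair at 11897 and 12122 bp shares a point, the strong sty site sits highest at 186 and 187, the vn site at 110 and 146, and the weaker sty site at 23.4 and 62.0.

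Across the 22 summits, 13 overlapped a thresholded peak in both replicates (59.1%, beside 54.8% of the main list), 5 in replicate 1 only (22.7%, beside 21.7%), 1 in replicate 2 only (4.55%, beside 11.1%) and 3 in neither (13.6%, beside 12.3%). These counts used an overlap of 1 bp; with 50% of both peaks overlapping, 6 of the 22 were present in both replicates (27.3%, beside 38.8%). By share of the ranked list, 16 of the 22 stood higher in replicate 2 (72.7%), beside 63.6% of the 3200 main-list peaks ranked in each replicate. Replicate 2 had the longer ranked list, which lowers its shares; by rank itself 12 of the 22 stood higher there (54.5%, beside 47.3%). For 12 of the 13 shared summits the replicates' summits lay within 65 bp of that of the main list, and the exception was the pnt site at 52909 bp. In replicate 1's own list 9 of the 10 genes held a summit, beside 16.7% of all genes, and in replicate 2's own list 8 did, beside 13.7%.

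Merged over the 4 thresholded lists, the peaks of these genes formed 28 sites. Of these, 12 were in all 4 lists, 7 in 3, 7 in 2 and 2 in 1. The 12 were 3 in aop, 2 each in aos, Egfr and pnt, and 1 each in spi, vn and sty. Of the 7 sites in 2 lists, 6 were in the pooled list and in 1 replicate, and were missed by the main list: 1 of Krn, 2 of rho, 2 of pnt and 1 of aop. The seventh was the pnt site at 11101 bp, in the main and pooled lists and in neither replicate. The 2 sites in 1 list were an aos site at 6203 bp in the pooled list (signal 32.0) and the Egfr pair at 11897 bp in the main list. The highest IDR value between replicates that still passed, 0.00901, was at that Egfr pair, and the lowest that did not, 0.0109, was at the pnt site at 11749 bp.

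**Figure D4:**
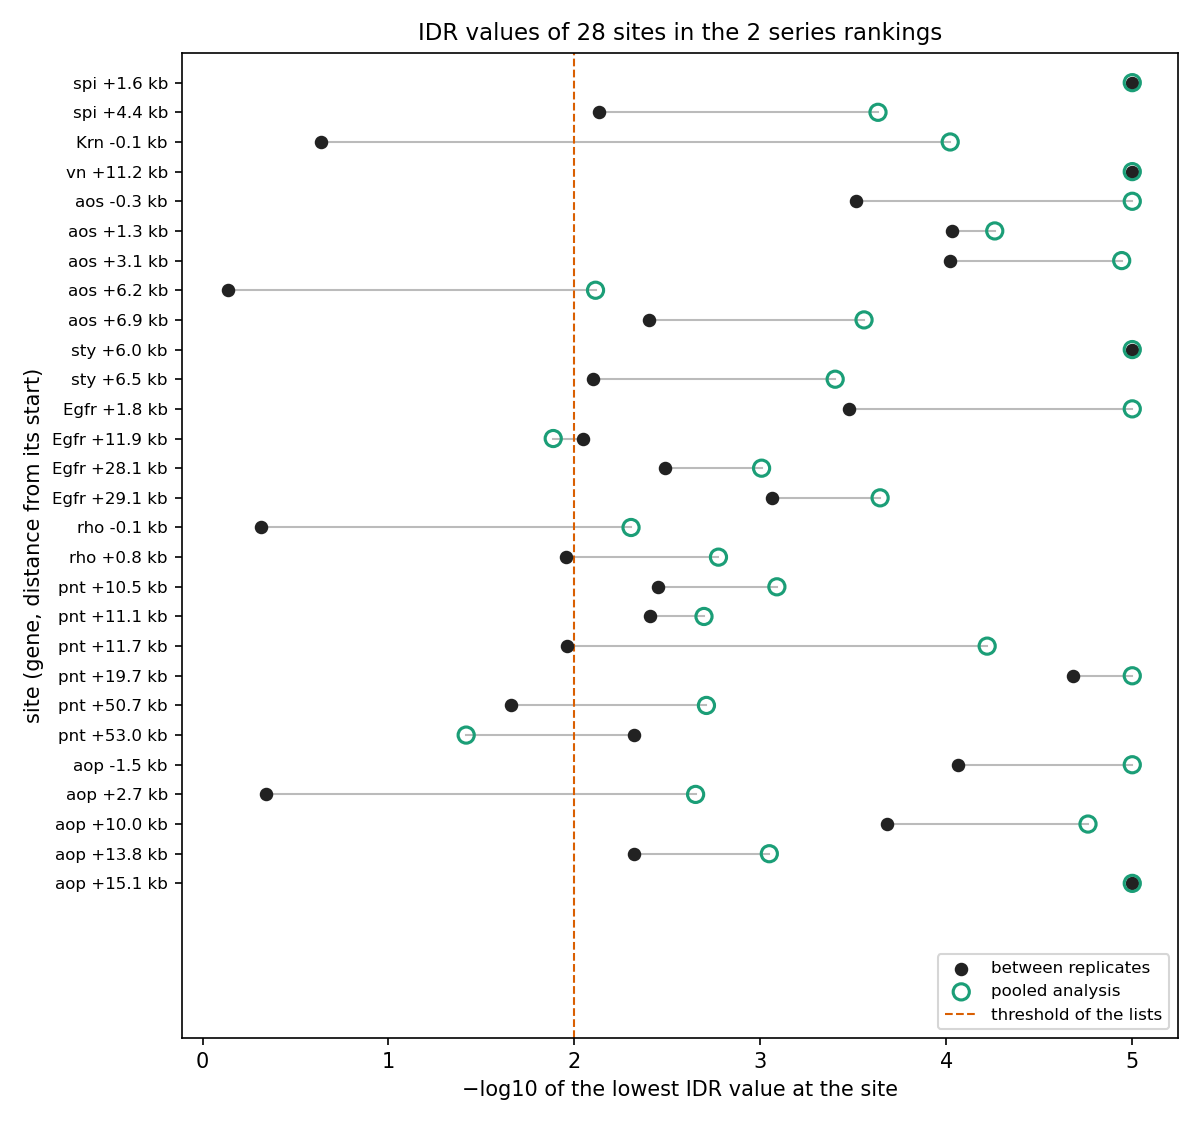
The −log10 of the lowest IDR value at each of the 28 merged sites in the ranking between replicates (filled) and in the pooled ranking (open), with the dashed line at the threshold of the lists. The sites of spi at 1575 bp, vn, sty at 5971 bp and aop at 15101 bp reach the smallest value in both rankings; the last pnt site is that of the summit at 52909 bp, and the sites of Krn and rho lie left of the line between replicates and right of it in the pooled ranking.

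The rest of the pathway was read from a list of 42 further genes that matched the annotation. Of these, 15 held a main-list summit: 10 of the 20 with windows of 10 kb or more, beside 41.6% of all such genes, and 5 of the 22 with shorter windows, beside 11.3%. Among those 5, the summits of drk, Shc, cnk and ebi lay nearest to the TSS of another gene (mars, Atat, l(2)k01209 and AP-2alpha). Both shares were counted without regard to the nearest TSS. The count of 15 became 10 when the 2 kb upstream were left out and 19 at an IDR value of 0.05. Among the genes with windows of 10 kb or more, 2 of 3 of ligand production, 2 of 5 of the cascade, 4 of 4 of the other inhibitors and nuclear regulators and 2 of 8 of the kekkon and ETS families held one. Of 7 genes of ligand production 2 did, Star (S, a trafficking factor for Spitz, signal 155) and ru, which encodes another rhomboid protease (signal 165). The strongest ru summit lay nearest to the TSS of tRNA:Glu-CTC-3-1. Of 14 genes of the cascade 5 held a main-list summit. The strongest was Shc, an adaptor gene (signal 636, rank 59), whose summit lay at -126 bp from its TSS but nearer to that of Atat. Raf, the kinase gene, held 8 summits in 50.4 kb (highest signal 619), and drk, the adaptor between receptor and Ras activation, 1 (signal 265). The phosphatase gene csw (signal 211) and the scaffold gene cnk (signal 234, nearest to the TSS of l(2)k01209) held 2 and 1. Sos, Ras85D, Dsor1 and rl, which encode the Ras activator, Ras, MEK and ERK, held none, rl in a window of 56.5 kb. Among all genes with windows over 30 kb, 52.6% held a summit. In the 7 genes of ligand production and the cascade that held a summit, the strongest was thresholded in both replicates.

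Of 10 other inhibitors and nuclear regulators 6 held a main-list summit. These included edl, which encodes a small partner of the ETS proteins (signal 628, rank 62), and cic, the repressor Capicua (6 summits in 53.2 kb, highest signal 319). RasGAP1 (signal 288, at -679 bp) and Mkp3, an ERK phosphatase gene (signal 217, at -480 bp), had theirs in front of the gene. The strongest summits of these 4 were thresholded in both replicates, and those of ttk (87.4) and ebi (17.5) in replicate 1 only. Of 11 relatives of kek1, pnt and aop 2 held a summit, namely kek5 (2 summits, highest signal 110) and the ecdysone-induced ETS gene Eip74EF (3, highest signal 223). The relatives kek2, kek3 and kek6 held none in windows of 46.9, 33.3 and 44.5 kb, and Ets65A none in 28.3 kb. So the other kekkon genes apart from kek5, and all ETS genes in the list apart from Eip74EF, were without a main-list summit. The genes pnt and aop held 4 each. Windows of kek4, Ets21C and Ets97D were under 10 kb, and that of kek5 measured 121 kb. Among all genes a summit was held by 11.3% with windows under 10 kb, 36.8% with 10 to 30 kb and 52.6% with longer ones. Whether length accounts for the contrast was not tested.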

How the data were processed

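ChIP-seq peak lists of 2 biological replicates of 1 group were analysed. The deposited files were narrowPeak lists on dm6 per the labels; the caller, aligner and versions are not given in the sources used here. Control data are named in the deposited text listings and were not analysed here. The deposited signal value of each peak is the authors' own, on an unstated scale. The deposited −log10 of the IDR value was used to place peaks against the 0.01 threshold. Each ranked series list was matched to the thresholded list whose peaks it holds in full; the main list was the one deposited as conservative. Genes and TSSs came from Ensembl release 115 (BDGP6.54) without transposable elements, sequence from the Release 6 assembly; all peak ends lay within its arms. Presence in a replicate was an overlap of 1 bp or more, and a promoter summit lay within 500 bp of a TSS. Words were searched within 100 bp. Counting and word search were tested on made-up data (Python 3.11.15, pandas 2.3.3).

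The named genes are the 10 members, pathway genes with the 6 highest signals or present in all 4 thresholded lists, and genes whose TSS is nearest to, or whose span holds, a main-list summit; the others are named for their place in the pathway or as neighbours, after their values were seen. Gap1 was not matched and is not analysed here. Members, lists and words were chosen with earlier results of these data known. No test between conditions was possible with 1 group, so values are descriptions; how many animals made up each replicate is not given in the sources used here. Alternatives used the pooled peaks, the peaks of a single replicate, the 1630 strongest peaks, other windows, overlaps and word windows, and, chosen after seeing the data, IDR values of 0.001 and 0.05 and summits merged within 400 bp.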

Additional observations from a re-analysis of the deposited data

How the results depend on the processing

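The 10 genes held a summit in 7 to 9 cases under every alternative run, beside 7 in the main list. Leaving out a replicate, by using the other's own list, gave 8 without replicate 1 and 9 without replicate 2, with 19 to 24 summits beside 22; for the 42 other pathway genes it gave 16 in both cases, beside 15, and the other alternatives gave 10 (gene body only) to 19 (IDR values up to 0.05). The number of summits moved most with the threshold: 34 with IDR values up to 0.05, 12 with values up to 0.001, and 11 when the 1630 peaks of highest signal were kept. The lists themselves then held 4958, 1873 and 1630 peaks on the arms, beside 3260 in the main list. With an overlap of 50% of both peaks, 6 summits in place of 13 were present in both replicates. Promoter summits numbered 7 in the pooled list, beside 3. Within 50 bp of the summit CACTG occurred at 4 summits in place of 12, and TAATTA at 1 in place of 4. The cause of these moves was not tested. Read depth was unknown, so a site missing from a list is not shown to be absent. No paired analysis was possible because there was 1 group.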

Other observations

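A longer form of the CACTG word, CACTGAGA, was seen in the printed windows of vn and aop, and it was counted after those sequences were seen. The printed pnt window also held it, on the other strand. The word was picked from windows of these genes, so its share among them is no independent support. Within 150 bp it occurred at 6 of the 22 main-list summits of these genes (27.3%), beside 237 of all 3260 main-list summits (7.27%) and 1.36% of ranked peaks with an IDR value above 0.05. The 6 included the vn site (-57 bp from the summit) and the pnt site at 19675 bp (76 bp). They also included the aop sites at 13770 and 15101 bp (-34 and -78 bp). The rest were the Egfr pair at 11897 bp (122 and -102 bp), which is the same copy seen from both summits. Both Egfr readings lay beyond the 100 bp searched for the other words.

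The word also had an orientation. Read on the strand spelling CACTGAGA, it pointed towards the summit in 235 of 253 readings at main-list summits and away in 18. A copy near several summits was read from each of them. At ranked peaks with an IDR value above 0.05, 718 readings pointed towards the summit and 563 away. In the 10 genes 5 of 6 readings pointed towards the summit. The exception was the Egfr copy seen from its second summit, whose signal was 2.8 and which lies on the other side of that copy from the first. The orientation was found by looking at these data, so no test is given, and what the word stands for was not tested.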
